A study of Mus musculus with 7 samples.

Results

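Siglecs are lectins of the immunoglobulin superfamily that bind sialic acid at the ends of the sugar chains of cell surfaces. The 7 genes described here are Cd22, Cd33, Siglech, Siglec1, Siglece, Siglecf and Siglecg, taken by symbol from the GENCODE M21 annotation out of 55401 genes in the count table. They were chosen from values of the same comparison that is described below, ATG7 against EYFP, so their differences between these groups are given as a description and support no statement of a change. All 7 were among the 19199 genes kept by the filter on low counts. RNA was sequenced from 7 libraries of dorsal hippocampal microglia of C57BL/6 mice, adult males by the series title, aged 6 to 8 weeks, enriched with beads against CD11b. The dorsal dentate gyrus of all mice was injected with AAV-RAM-Cre, whose RAM promoter drives Cre in neurons that an experience activated. With it, the mice of the EYFP group (4 libraries) received AAV-Dio-EYFP, which encodes a fluorescent protein, and those of the ATG7 group (3 libraries) received AAV-Dio-Atg7-Flag, which encodes a tagged autophagy enzyme. The virus therefore acts in neurons, and the RNA measured is that of the bead-enriched cells around them. The comparison asked how those cells differ when Atg7 is raised in the activated neurons.

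Most Siglecs carry immunoreceptor tyrosine-based inhibitory motifs (ITIMs) in the cytoplasmic tail, which recruit the phosphatases encoded by Ptpn6 and Ptpn11 once the receptor binds its ligand. Others lack such a motif, and Siglech signals through the adaptor DAP12, the product of Tyrobp. In the brain, sialic acid on neurons and glia is the ligand through which these receptors can restrain microglial activation and phagocytosis.

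Library totals lay between 35934210 and 55217119 counts, and values are CPM, counts scaled to the library total with trimmed means of M values (TMM). A floor of 3 counts corresponded to at most 0.0835 CPM, a limit that covers counting error only. The library EYFP 3 stood apart from the other 6: the female-specific Xist was at 938.5 CPM there, against 0.151 to 0.574 CPM elsewhere, and the Y-linked Ddx3y was at 27.6 CPM, against 121 to 169 CPM. These values go against the stated sex for the library labelled EYFP 3, although Ddx3y was not absent there, with 1245 counts. Whether that library holds RNA of both sexes was not tested. Log2 fold changes of the members and of the genes named from the pathway lists, and the counts of the lists, are therefore also given without EYFP 3. Atg7 itself was at 33.6 to 37.6 CPM in EYFP and 31.95 to 37.4 CPM in ATG7, a log2 fold change of −0.03 (SE 0.0787; edgeR adjusted p = 0.939), which is a measure of the enriched cells and not of the neurons that carry the virus. Microglial markers were plentiful in every library, with a summed level of 19241 to 23486 CPM over 7 markers in EYFP and 19101 to 23471 CPM in ATG7. Choroid plexus markers, led by Ttr, summed to 54342 to 71635 CPM in EYFP and 46003 to 60665 CPM in ATG7, so RNA of other cells was present. In bulk RNA of this kind, fewer cells of a type and less RNA per cell cannot be told apart. The labels do not say whether a library is 1 mouse, and p-values measure the spread between these libraries only.

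The start regions of 4 members are shown as a description. The libraries of the groups did not overlap for Cd22 and Siglecf, and they overlapped for the abundant Cd33 and Siglech. Values of ATG7 against EYFP chose the members, so no contrast between these regions is read. Each region is the RefSeq window (GRCm38.p6) of 250 bases before to 50 after the gene's RefSeq start, printed 5′ to 3′ on the gene's strand. The Cd22 window is chr7:30878979-30879278 on the minus strand and lies inside the GENCODE span of the gene, and so does the Cd33 window, chr7:43533122-43533421, also on the minus strand. The GENCODE 5′ ends of these genes, at 30880342 for Cd22 and 43544428 for Cd33, lie outside their windows. The Siglecf window, chr7:43351091-43351390, and the Siglech window, chr7:55767934-55768233, are on the plus strand. Capitals mark matches to 3 motifs searched on both strands: the interferon-stimulated response element GAAANNGAAA, the gamma-activated site TTCNNNGAA and the PU box GAGGAA of the myeloid factor PU.1.
Cd22: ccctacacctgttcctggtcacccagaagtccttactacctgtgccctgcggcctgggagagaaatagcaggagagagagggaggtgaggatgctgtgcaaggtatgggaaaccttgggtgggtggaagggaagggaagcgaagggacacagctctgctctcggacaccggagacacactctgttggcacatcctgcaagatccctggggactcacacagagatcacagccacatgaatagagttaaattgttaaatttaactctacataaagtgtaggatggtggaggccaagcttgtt
Siglecf: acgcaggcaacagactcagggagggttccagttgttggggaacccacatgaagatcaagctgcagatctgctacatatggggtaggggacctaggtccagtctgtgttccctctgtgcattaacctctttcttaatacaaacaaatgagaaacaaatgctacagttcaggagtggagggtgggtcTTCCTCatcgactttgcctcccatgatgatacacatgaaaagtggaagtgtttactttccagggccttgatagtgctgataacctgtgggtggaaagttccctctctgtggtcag
Cd33: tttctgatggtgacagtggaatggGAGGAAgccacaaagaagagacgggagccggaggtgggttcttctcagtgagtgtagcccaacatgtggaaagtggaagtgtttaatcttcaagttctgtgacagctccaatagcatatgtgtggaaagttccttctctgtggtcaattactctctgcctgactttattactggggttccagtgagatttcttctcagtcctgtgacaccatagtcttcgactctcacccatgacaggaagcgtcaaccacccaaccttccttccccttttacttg
Siglech: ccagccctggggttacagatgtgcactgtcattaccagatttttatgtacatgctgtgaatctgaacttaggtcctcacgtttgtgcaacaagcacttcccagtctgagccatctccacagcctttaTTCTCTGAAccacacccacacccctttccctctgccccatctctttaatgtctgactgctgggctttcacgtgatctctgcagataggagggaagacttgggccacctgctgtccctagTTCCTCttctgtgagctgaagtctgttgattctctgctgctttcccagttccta
None of the windows of the 6 matched members holds the interferon-stimulated response element, which 3.44% of all 32851 RefSeq windows of this length hold. At so low a share, no match among 6 members is the usual outcome, so nothing is read from it. The gamma-activated site, held by 8.30% of all windows, was found in Siglech only, with its first base at −123 from the start. The PU box, held by 28.3% of all windows, was found in Cd33 at −226, in Siglecf at −65 and in Siglech at −4, and also in Siglece and in 1 of the 2 windows of Siglecg. Cd22 holds none of these letters in its window. The windows of Cd33 and Siglecf share a run of 16 identical bases, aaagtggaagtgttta, which starts at −157 in Cd33 and at −27 in Siglecf. No other pair of members was found to share more than 10 bases in a row. Siglec1 has no entry in the table used.

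Levels between genes were compared per kilobase of exon (CPM per kb), over all 7 libraries. Siglech was the highest, at 218 to 269.9 CPM per kb, and Cd33 came second at 87.0 to 109 CPM per kb. Siglece followed at 27.1 to 40.0 CPM per kb. These 3 ranges do not touch each other or that of the next gene. Siglecf, at 8.68 to 14.9 CPM per kb, overlapped Siglec1, at 4.796 to 9.40 CPM per kb, although Siglecf was above Siglec1 within each of the 7 libraries. Cd22 lay at 1.85 to 4.97 CPM per kb and Siglecg was the lowest member at 0.622 to 1.14 CPM per kb. Mag, the myelin-associated Siglec of oligodendrocytes and not a member, lay at 4.74 to 6.37 CPM per kb, overlapping Siglec1 and Cd22. Siglec15, the remaining gene with a Siglec symbol, reached 0.134 CPM per kb at most, with 1 to 7 counts a library, and did not pass the filter. As a share of the summed per-length level of the 7 members, Siglech made up 61.1% to 63.7% and Cd33 22.4% to 26.0%. The share of Cd22 was 0.450% to 0.727% in EYFP and 1.13% to 1.17% in ATG7, that of Siglecf 2.18% to 2.65% and 3.27% to 3.65%, and that of Siglec1 1.28% to 1.40% and 1.71% to 2.30%.

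**Figure D1:**
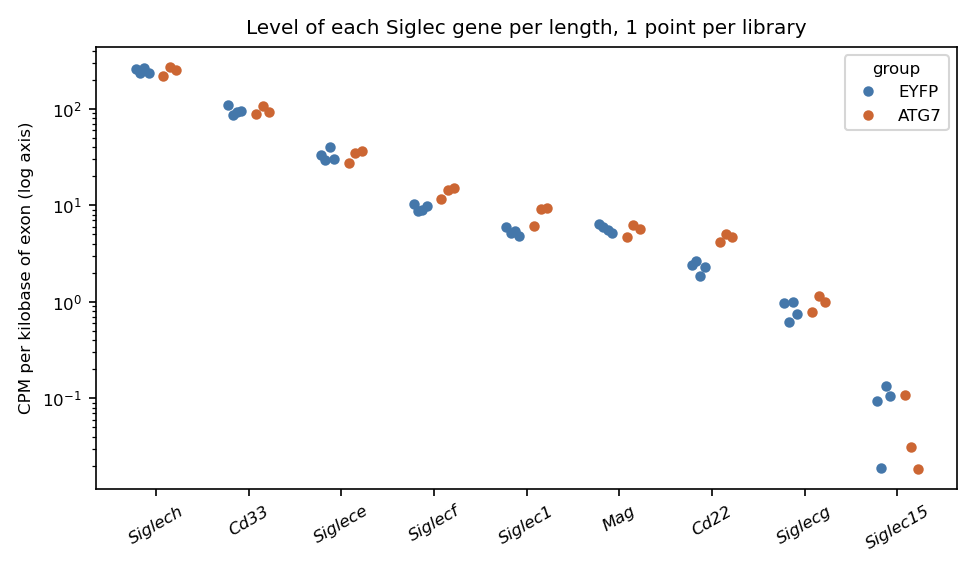
Level of each member, Mag and Siglec15 in every library, in CPM per kilobase of exon on a log axis, with EYFP libraries in blue and ATG7 libraries in orange. Siglech and Cd33 stand above all others, and Cd22, Siglecf and Siglec1 are the genes whose orange points all lie above the blue ones.

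Across the comparison, the members fell into a set that was higher in ATG7 and a set whose libraries overlapped. Cd22 was 2.0-fold higher in ATG7 and Siglecf 1.45-fold higher, Siglec1 was 1.54-fold higher on average with a wide spread, and Siglecg, Siglece, Siglech and Cd33 overlapped between groups. In the fit over all genes, 2 of the 7 members (Cd22 and Siglecf) were past an edgeR adjusted p of 0.05, where 0.755% of all genes tested were (145 of 19199) and 0.688% were past it as higher in ATG7. In 3 of the 7 members the libraries of the groups did not overlap, against 11.2% of all genes tested. The values of this comparison chose the members, so neither count is a test of them and nothing is read from either. The median log2 fold change of the members was 0.23, and that of all genes tested was −0.0037.

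**Figure D2:**
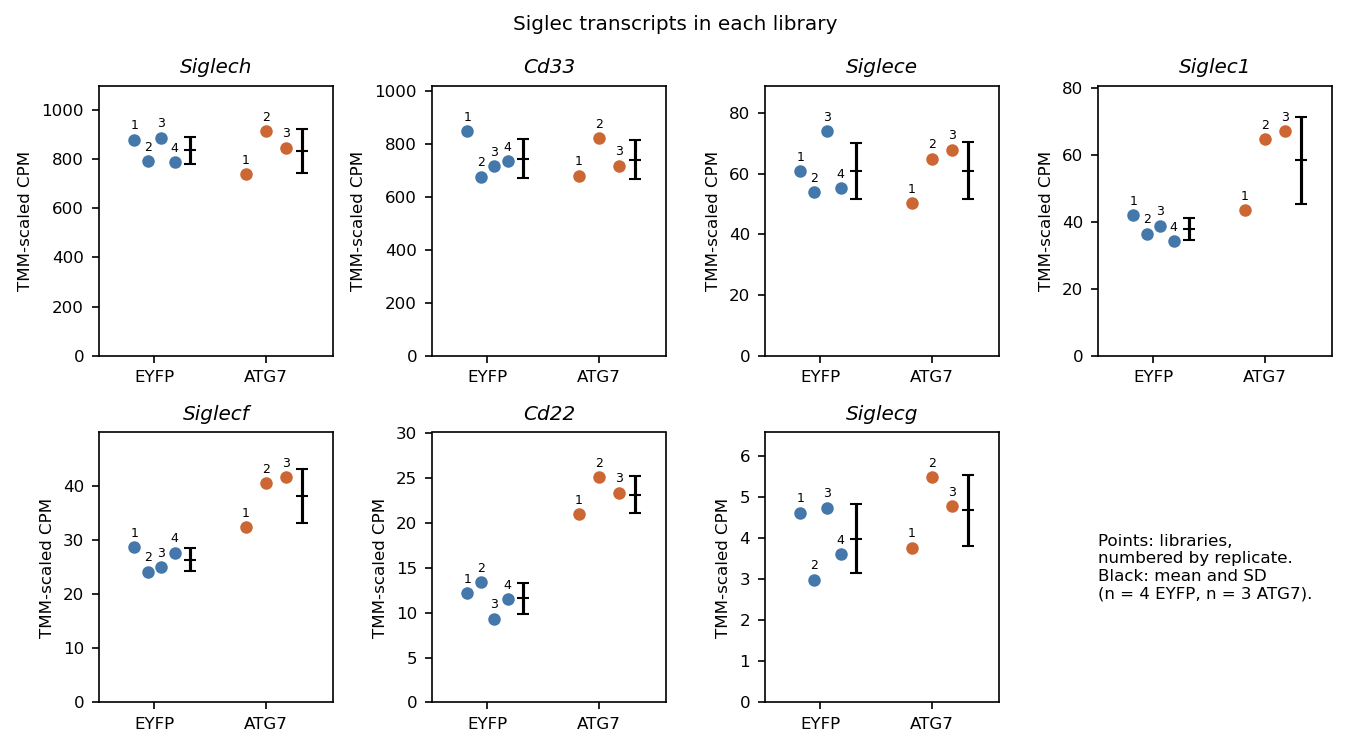
TMM-scaled CPM of each member in each library, on an axis from 0, with points numbered by replicate and the mean and SD of each group in black (n = 4 EYFP, n = 3 ATG7). Cd22 and Siglecf are separated between the groups, ATG7 1 lies just above the EYFP libraries for Siglec1, and the other 4 genes overlap.

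Among the ITIM-bearing receptors, Cd22 is best known as the inhibitory co-receptor of the B cell receptor and is also made by microglia, where it restrains phagocytosis. It (ENSMUSG00000030577, GRCm38 chromosome 7, 30865402 to 30880342, minus strand) was at 12.2, 13.4, 9.33 and 11.5 CPM in EYFP 1 to 4 and at 21.0, 25.1 and 23.4 CPM in ATG7 1 to 3. Every ATG7 library was above every EYFP library, and the lowest EYFP value was that of EYFP 3. Group means were 11.6 ± 1.71 (SD, n = 4) CPM in EYFP against 23.2 ± 2.04 (SD, n = 3) CPM in ATG7, giving a log2 ratio of 1.00 (SE 0.123). Without EYFP 3 the log2 fold change was 0.90 (SE 0.108). The counts behind these values were 421 to 1378 a library. Of the gene's 31-base words, 10.7% also occur in other genes, mostly in Gm29439, which overlaps its exons by 479 bases on the opposite strand. Gm29439 had 0 counts in every library, and whether counting used the strand is not given in the sources used here.

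Siglecf, the inhibitory receptor that marks eosinophils and alveolar macrophages, lies beside Siglecg in the genome. It (ENSMUSG00000039013, chromosome 7, 43351341 to 43359531, plus strand) was at 28.8, 24.2, 25.0 and 27.7 CPM in EYFP 1 to 4 and at 32.5, 40.6 and 41.6 CPM in ATG7 1 to 3. The groups did not overlap, and ATG7 1 was the nearest to the EYFP libraries. Means were 26.4 ± 2.16 (SD, n = 4) CPM in EYFP against 38.2 ± 5.01 (SD, n = 3) CPM in ATG7, giving a log2 ratio of 0.53 (SE 0.102). Over the 7 fits that each left out a library, the log2 fold change was 0.46 to 0.64. Without EYFP 3 it was 0.50 (SE 0.111).

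Siglec1, or sialoadhesin, is a long endocytic receptor without an ITIM that marks macrophages of the brain's borders and is induced by type I interferon in macrophages. It (ENSMUSG00000027322, chromosome 2, 131069220 to 131086765, minus strand) was at 42.1, 36.4, 38.9 and 34.3 CPM in EYFP 1 to 4 and at 43.5, 64.7 and 67.2 CPM in ATG7 1 to 3. The groups did not overlap, but ATG7 1 exceeded EYFP 1 by little and lay far from the other ATG7 libraries. Means were 37.9 ± 3.35 (SD, n = 4) CPM in EYFP against 58.4 ± 13.04 (SD, n = 3) CPM in ATG7, with a log2 fold change of 0.63 (SE 0.138). Over the 7 fits that each left out a library it was 0.51 to 0.80, the highest without ATG7 1. Without EYFP 3 the value was again 0.63 (SE 0.152).

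Siglech, a receptor of microglia and plasmacytoid dendritic cells (ENSMUSG00000051504, chromosome 7, 55768178 to 55778925, plus strand), was at 877, 789.6, 886 and 785 CPM in EYFP 1 to 4 and at 737, 913 and 844.5 CPM in ATG7 1 to 3. The EYFP range lay inside that of ATG7, which held both the lowest and the highest library. Means were 834 ± 54.3 (SD, n = 4) CPM in EYFP against 831.5 ± 88.6 (SD, n = 3) CPM in ATG7, a fold of 0.997 with 1 SE from 0.932 to 1.07. On the log2 scale this was −0.00, or 0.02 without EYFP 3.

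Cd33, whose human counterpart is a risk gene of Alzheimer's disease, lies at chromosome 7, 43524216 to 43544428, minus strand (ENSMUSG00000004609). It was at 849, 676, 716 and 736 CPM in EYFP 1 to 4 and at 680.3, 822 and 718 CPM in ATG7 1 to 3. EYFP 1 was the highest library and EYFP 2 the lowest, so the ATG7 libraries all lay within the EYFP range. Means were 744 ± 74.0 (SD, n = 4) CPM in EYFP against 740.1 ± 73.6 (SD, n = 3) CPM in ATG7, a fold of 0.995 with 1 SE from 0.926 to 1.07. On the log2 scale this was −0.01, or −0.03 without EYFP 3.

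Siglece, an ITIM receptor of microglia and neutrophils (ENSMUSG00000030474, chromosome 7, 43651070 to 43660161, minus strand), was at 60.8, 53.8, 74.0 and 55.1 CPM in EYFP 1 to 4 and at 50.2, 64.8 and 67.9 CPM in ATG7 1 to 3. EYFP 3 was the highest library and ATG7 1 the lowest. Means were 60.9 ± 9.22 (SD, n = 4) CPM in EYFP against 60.9 ± 9.45 (SD, n = 3) CPM in ATG7, and the log2 fold change was 0.00 (SE 0.129), or 0.10 without EYFP 3.

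Siglecg, the ITIM receptor that restrains B-1 cells and binds CD24, was the rarest member (ENSMUSG00000030468, chromosome 7, 43408204 to 43418358, plus strand). It was at 4.62, 2.99, 4.75 and 3.61 CPM in EYFP 1 to 4 and at 3.77, 5.48 and 4.77 CPM in ATG7 1 to 3, from 137 to 301 counts. The groups overlapped. Means were 3.99 ± 0.840 (SD, n = 4) CPM in EYFP against 4.68 ± 0.857 (SD, n = 3) CPM in ATG7, giving a log2 ratio of 0.23 (SE 0.204), or 0.32 without EYFP 3. Siglecg shares 7.01% of its 31-base words with other genes, so reads of near copies may be split there.

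**Figure D3:**
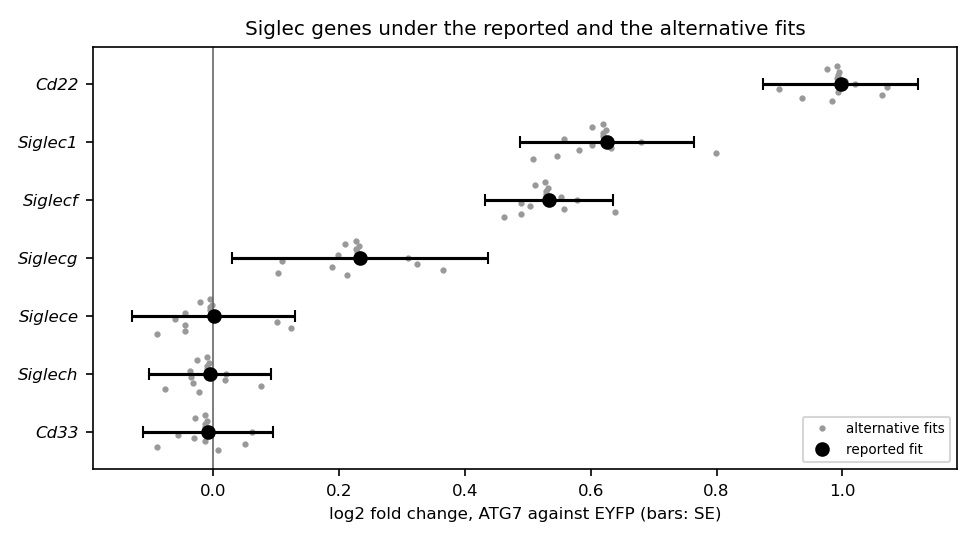
Log2 fold change of each member, ATG7 against EYFP, with its SE in black, and in grey the 13 alternative fits. Cd22 stays between 0.90 and 1.07 and Siglecf between 0.46 and 0.64, while the grey points of Siglece, Siglech and Cd33 lie on both sides of 0.

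The spread between libraries of a group was wider than counting alone gives. For Cd22 the coefficient of variation was 14.8% in EYFP and 8.83% in ATG7, where counting error would give 4.57% and 3.06%. For Siglec1 it was 8.84% in EYFP and 22.3% in ATG7, against 2.51% and 1.95%, so the wider spread was that of ATG7. For Cd33 it was 9.94% and 9.95%, against 0.567% and 0.541%. For these genes the spread between libraries, and not the depth, set the precision.

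Likeness was measured as Pearson's r of log2 CPM over the 7 libraries, against 15042 genes with a mean of at least 1 CPM, and again after each group's mean was taken away. Points share depth and group, so r is a description only. The genes most like Cd22 were Zfas1 (r = 0.997, or 0.967 within groups) and Met (r = 0.990, or 0.903 within groups). Siglecf was most like Pml (r = 0.993, or 0.965 within groups) and Rbl1 (r = 0.990, or 0.976 within groups). Siglec1 was most like Pgd (r = 0.989, or 0.972 within groups) and Fam167b (r = 0.988, or 0.982 within groups). In the pairs of Siglecf and Siglec1 the order turned within groups, between values close together, so nothing is read from the order. Each gene named is among the highest of 15042 candidates over only 7 libraries, so a high r is not read as a link. Among the members that overlapped, Siglece was most like Kcnk13 (r = 0.996) and Frmd8 (r = 0.996), and Siglecg most like Nckap1l (r = 0.996) and P2rx7 (r = 0.993). Siglech was most like Mllt1 (r = 0.985) and Sdr42e1 (r = 0.973), and Cd33 most like Faah (r = 0.978) and Prr11 (r = 0.976).

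The genes that lie next to the members were read in the same fit. Of 12 nearest tested neighbours that are no members, 0 were past the edgeR threshold, 2 had an unadjusted p under 0.05 (Iglon5 and Nkg7), where 11.98% of all genes tested had one, and DESeq2 called 1 (Nkg7), where it called 3.24% of genes. Without EYFP 3 the edgeR counts were again 0 and 2, beside 164 and 2301 of all 18825 genes tested. The log2 fold changes of the 12 neighbours, over all libraries, ran from −0.65 to 1.53 with a median of 0.01. Beside Cd22, Dmkn was at −0.01 and D7Ertd128e at 0.43 (edgeR adjusted p = 0.654). Beside Siglec1, Adam33 was at 0.20 (adjusted p = 0.636) and Hspa12b at 0.18 (adjusted p = 0.761). Siglecf and Siglecg are neighbours 48673 bases apart, and whether their log2 fold changes differ was not tested.

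Downstream of the receptors lie their signalling partners. Of 11 measured (kinases, phosphatases, adaptors, Cbl and Socs3), 0 were past the edgeR threshold, 3 had an unadjusted p under 0.05 and DESeq2 called 1 (Fgr). Over all genes those shares were 0.755%, 11.98% and 3.24%. Their median log2 fold change was 0.20, with 10 of 11 above 0, where 49.2% of all genes were above 0. Of the microglial markers 5 of 7 were above 0, with a median of 0.05. Of the choroid plexus markers 0 of 5 were, with a median of −0.26. The part of cell composition in the values of the signalling partners was not tested. Tyrobp, the adaptor of Siglech, was at 332 ± 29.95 (SD, n = 4) CPM in EYFP against 379.7 ± 29.8 (SD, n = 3) CPM in ATG7 (log2 fold change 0.20, adjusted p = 0.45). Ptpn6, the phosphatase that ITIMs recruit, was at 225 ± 12.3 (SD, n = 4) CPM in EYFP against 263 ± 27.0 (SD, n = 3) CPM in ATG7, giving a log2 ratio of 0.23 with an adjusted p of 0.33. The Src-family kinase Fgr had the smallest p of the list, at 6.19 ± 0.972 (SD, n = 4) CPM in EYFP against 9.62 ± 2.11 (SD, n = 3) CPM in ATG7, with a log2 fold change of 0.64 (SE 0.178) and an adjusted p of 0.162. Without EYFP 3 the log2 fold changes were 0.20 for Tyrobp, 0.25 for Ptpn6 and 0.53 for Fgr. EdgeR then called 0 of the 11, with 5 at an unadjusted p under 0.05, beside 2301 of all 18825 genes tested.

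The sialic acid that Siglecs bind is made, attached and removed by 3 further lists of genes. In sialic acid synthesis and activation, 0 of 7 were past the edgeR threshold, none had an unadjusted p under 0.05, DESeq2 called 0 and the median log2 fold change was −0.00. Npl, the lyase that breaks sialic acid down, had the smallest p (log2 fold change −0.18, adjusted p = 0.489). Of 20 sialyltransferases, 16 were tested, 0 were past the edgeR threshold, 4 had an unadjusted p under 0.05 (11.98% of all genes had one) and DESeq2 called 1 (3.24% of all genes), with a median of 0.00. St8sia1, which adds a second sialic acid to gangliosides, was at 6.79 ± 0.354 (SD, n = 4) CPM in EYFP against 9.85 ± 2.23 (SD, n = 3) CPM in ATG7, giving a log2 ratio of 0.54 (adjusted p = 0.167). Of 7 sialidases and modifiers, 6 were tested, 0 were past the edgeR threshold, 1 had an unadjusted p under 0.05, a share near the 11.98% of all genes, and DESeq2 called 1, with a median of 0.07. That gene, the sialidase Neu2, was at 4.34 ± 0.825 (SD, n = 4) CPM in EYFP against 2.21 ± 0.538 (SD, n = 3) CPM in ATG7, giving a log2 ratio of −0.98 (SE 0.221) and an adjusted p of 0.084. Without EYFP 3 the log2 fold changes were −0.13 for Npl, 0.55 for St8sia1 and −1.01 for Neu2. EdgeR then again called 0 genes of these 3 lists, with 2, 5 and 1 at an unadjusted p under 0.05. In that fit 2301 of all 18825 genes tested had such a p.

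Among other paired receptors of myeloid cells that carry ITIMs or use DAP12, 1 of 12 was past the edgeR threshold, 4 had an unadjusted p under 0.05, DESeq2 called 1 and 11 were above 0, with a median log2 fold change of 0.15. The shares over all genes were 0.755%, 11.98%, 3.24% and 49.2%. The part of cell composition in the values of these receptors was not tested either. Cd300lf, an inhibitory receptor for lipids, rose from 5.87 ± 0.851 (SD, n = 4) CPM in the EYFP libraries to 12.8 ± 2.05 (SD, n = 3) CPM in ATG7, giving a log2 ratio of 1.13 (SE 0.150; adjusted p = 0.00982). Its call was lost when ATG7 2 was left out, and without EYFP 3 its log2 fold change was 1.06 (edgeR adjusted p = 0.014). The interferon-stimulated reference genes, which report on type I interferon signalling, were 5 of 12 past the edgeR threshold, all higher, beside 0.688% of all genes, and 12 of 12 by DESeq2, beside 3.24%, with a median of 1.47. Bst2 rose by 0.86 on the log2 scale (adjusted p = 0.0105), Isg15 by 1.52 (adjusted p = 0.0182) and Ifit1 by 1.33 (adjusted p = 0.0388). This list had known results in these data when it was written. Its count fell to 1 without EYFP 4, ATG7 2 or ATG7 3 and to 2 without EYFP 2. Calls over all genes fell in the same fits. They were 30 of 18985 genes tested without EYFP 4, 28 of 19459 without ATG7 2 and 30 of 19532 without ATG7 3. Without EYFP 2 they were 94 of 18822, against 145 of 19199 with all libraries. The count of the list was 12 without EYFP 3, where edgeR called 0.871% of all genes. Without EYFP 3 the log2 fold changes were 0.77 for Bst2, 1.35 for Isg15 and 1.14 for Ifit1. The summed level of the list was 442.5, 357, 216 and 334 CPM in EYFP 1 to 4 and 676, 948 and 906 CPM in ATG7 1 to 3. EYFP 3 was the lowest library of the list and of Cd22, and ATG7 1 was the lowest ATG7 library of the list, of the microglial markers and of all 7 members. The part of interferon signalling, or of the microglial share, in the Siglec values was not tested.

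**Figure D4:**
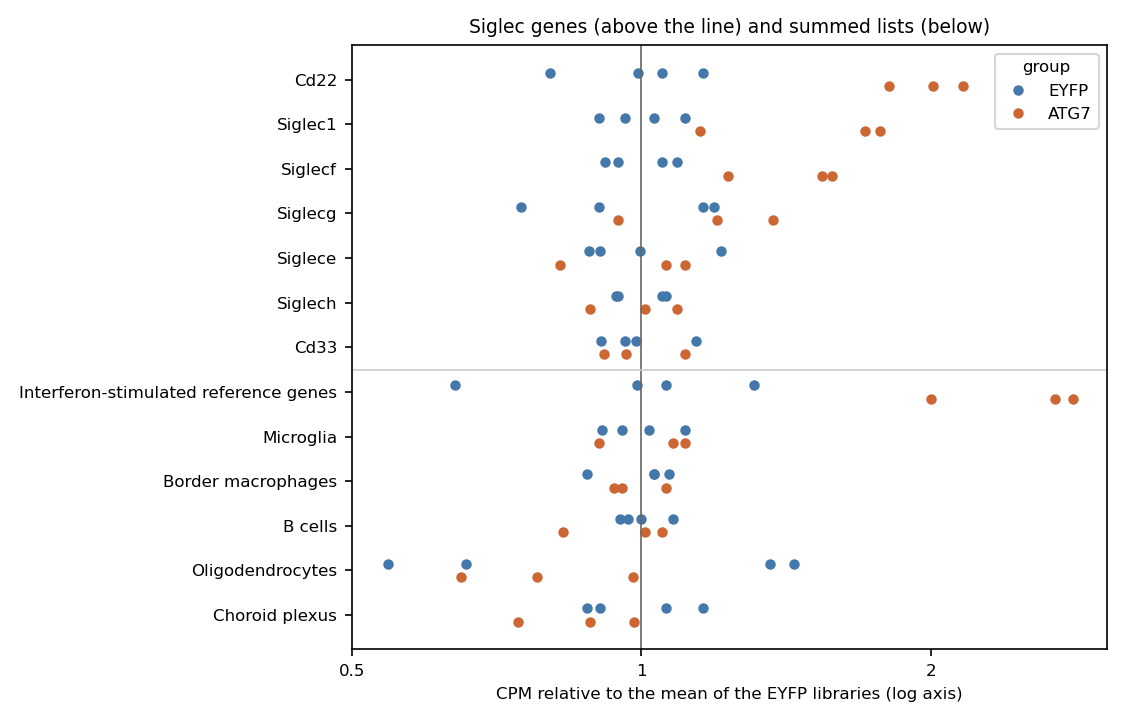
CPM of each member, and of some of the summed gene lists, in each library relative to the mean of the EYFP libraries, on a log axis. Lists that are not drawn include monocytes, at 0.942, 1.2 and 1.79 in ATG7 1 to 3, and neutrophils, at 0.348, 0.417 and 2.13. The interferon list reaches 2.81 in ATG7 2 and Cd22 2.16, while the microglia sums of the ATG7 libraries lie between 0.903 and 1.11.

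Several members are known from other cells, so markers of those cells were measured in the same libraries, over 10 marker lists. Of 48 marker genes tested edgeR called 0, where it called 0.755% of all genes. An unadjusted p under 0.05 was found for 5, near the 11.98% of all genes. DESeq2 called 2 (Ighd and Plac8), beside 3.24% of all genes. Without EYFP 3 edgeR again called 0 of 48, with 8 at an unadjusted p under 0.05. In that fit 2301 of all 18825 genes tested had such a p. B cells, the classic source of Cd22 and Siglecg, summed to 245 to 278 CPM over 7 markers in EYFP and 213 to 270.1 CPM in ATG7, most of it Ighm. Their defining markers Ms4a1 and Pax5 had 0 to 19 and 0 to 8 counts a library, beside the floor of 3 counts. Cd79b had 327 to 674 counts and Ighd 332 to 568 counts a library. Ighd was at 10.9 to 12.7 CPM in EYFP and 8.29 to 10.1 CPM in ATG7 (log2 fold change −0.39, edgeR adjusted p = 0.179). Eosinophil markers, for Siglecf, summed to 1.75 to 3.03 CPM in EYFP and 1.599 to 2.49 CPM in ATG7, and their granule genes Prg2 and Epx had 0 to 51 and 0 to 8 counts a library. Ccr3, the one member of that list that was tested, had 59 to 119 counts a library and a log2 fold change of 0.14 (edgeR adjusted p = 0.891). Border macrophage markers, for Siglec1, summed to 532 to 647 CPM in EYFP and 569 to 644 CPM in ATG7, and without EYFP 3 the EYFP range was 532 to 624 CPM. Plasmacytoid dendritic cell markers, for Siglech, summed to 16.1 to 19.0 CPM in EYFP and 15.4 to 17.96 CPM in ATG7. Most of it was Pacsin1, at 13.03 to 16.3 CPM over all libraries. Ccr9 had 25 to 54 counts a library, Cox6a2 28 to 100, Klk1 0 to 10 and Ly6d 2 to 9. Monocyte markers summed to 29.2 to 34.0 CPM in EYFP and 29.3 to 55.6 CPM in ATG7. Ccr2 was the largest part, at 17.4 to 23.4 CPM in EYFP and 17.7 to 23.7 CPM in ATG7. It held 17.7 of 37.1 CPM in ATG7 2 and 23.7 of 55.6 CPM in ATG7 3, so the other markers together held more there. Plac8 was at 1.80 to 4.25 CPM in EYFP and 4.70 to 11.4 CPM in ATG7, with no overlap (log2 fold change 1.45, edgeR adjusted p = 0.128). Ly6c2 was at 1.55 to 4.40 CPM in EYFP and 3.02 to 13.5 CPM in ATG7 (log2 fold change 1.47, edgeR adjusted p = 0.33). Without EYFP 3 these log2 fold changes were 1.24 for Plac8 and 1.27 for Ly6c2. The part of monocytes in the values of Cd22, Siglecf and Siglec1 was not tested. Neutrophil markers, for Siglece, ran from 27.4 to 66.4 CPM and from 17.0 to 104 CPM, and oligodendrocyte markers, for Mag, from 208 to 551 CPM and from 248 to 375 CPM. Neuronal markers summed to 3.35 to 19.2 CPM in EYFP and 5.59 to 6.65 CPM in ATG7. Mag itself was at 20.9 to 25.9 CPM in EYFP and 19.3 to 25.5 CPM in ATG7, a log2 fold change of −0.04 (edgeR adjusted p = 0.924).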

How the data were processed

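The authors deposited raw counts per gene for 7 libraries, with whole numbers for 55401 Ensembl identifiers. The submitters' processing notes name fastp 0.20.1, HISAT2 2.0.5 and featureCounts and the builds mm10 and GRCm38, without their roles. The annotation release, the use of strand and the handling of shared reads are not given in the sources used here. All 37 mitochondrial genes were listed at 0. Symbols, positions and exon lengths came from GENCODE M21 on GRCm38, which named 55141 of the identifiers, and promoter windows came from RefSeq.

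Groups came from the sample titles. In edgeR 4.0.16 (R 4.3.3), a quasi-likelihood model was fitted to the counts of all 7 libraries, with no covariate, after filterByExpr and TMM scaling. The test was two-sided, with Benjamini-Hochberg adjustment over 19199 genes and a threshold of 0.05. SE is the absolute log2 fold change over the square root of F, and the prior count for log2 CPM was 2. Pairs of libraries of a group differed by more than counting noise (chi-square per degree of freedom 19.2 to 41.3), so none looked like a repeat deposit of another. This does not show that they are independent animals. The fit was tested on simulated data. Alternatives were other scalings, other filters, DESeq2 1.42.0, a replicate block and leaving out each library.

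The text names all members, Mag, other Siglec symbols, Atg7, the members of each pathway list with the smallest p, the 2 genes most like each member, and defining markers. Tyrobp, Ptpn6, Plac8, Ly6c2, Ighd and the neighbours were named after their values were seen. The members and the lists were chosen with earlier results of these data known. Some genes that this rule names are not reported here.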

Additional observations from a re-analysis of the deposited data

Results flagged for a closer look

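In groups of 4 libraries, a library was listed when its gap to the nearest other was large against the group's whole range. Of 36 values examined 3 were listed, where chance gives about 1 in 20, or 1.8. Each lies in EYFP 3. Xist was at 938.5 CPM there, against 0.327 to 0.574 CPM in the other EYFP libraries, and Ddx3y was at 27.6 CPM, against 153 to 169 CPM. The sialidases and modifiers summed to 986 CPM there, against 946.5 to 952 CPM in the other EYFP libraries. None of the 7 Siglec genes was listed in this way. The rule was applied to the EYFP libraries only, so no ATG7 library could be listed.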

How the results depend on the processing

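Over 13 alternatives the log2 fold change was 0.90 to 1.07 for Cd22, 0.46 to 0.64 for Siglecf and 0.51 to 0.80 for Siglec1, and that of Cd33, Siglech and Siglece took both signs. The number of genes that differed was 145 as reported, 297 with no filter on low counts, 572 by DESeq2 and 28 to 277 when 1 library was left out. The share that was higher was 91.0% as reported, 78.8% with no filter, 70.6% by DESeq2 and 75.5% without EYFP 1. With a replicate block 0 genes were called by edgeR (1256 at an unadjusted p under 0.05), and so 0 members, 0 paired receptors and 0 interferon genes. The block leaves fewer degrees of freedom for the spread between libraries, and EYFP 4 has no same-numbered ATG7 library. In that fit the log2 fold change was 1.00 for Cd22, 0.55 for Siglecf and 0.56 for Siglec1. The labels do not say whether same-numbered libraries were handled together. Same-numbered deviations correlated at −0.06, −0.18 and 0.07, and those of the other pairs at −0.145 to 0.215. Deviations were taken from means of 4 and 3 libraries, so these values cannot exclude a shared batch. The count of members called, which is no test of them, was 1 under library size alone, where 138 of 19199 genes were called. It was 1 to 3 when 1 library was left out (1 without EYFP 2, EYFP 3, EYFP 4, ATG7 2 or ATG7 3). In those fits, in that order, 94, 164, 30, 28 and 30 of all genes tested were called. Without EYFP 1 there were 277 such genes, and without ATG7 1 there were 148. Signalling partners called were 1 with no filter and 1 by DESeq2, sialyltransferases 1 by DESeq2, and sialidases and modifiers 1 with no filter, 1 by DESeq2 and 0 to 1 when 1 library was left out. Paired receptors called were 0 to 1 when 1 library was left out. Interferon genes called were 2 with no filter, 12 by DESeq2 and 1 to 12 when 1 library was left out. Fewer libraries entered each left-out fit, and the cause of the other changes was not tested.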
